A study of Mus musculus with 6 samples.

Results

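The genes described here are 10 genes of TREM2-type lipid-associated macrophages: the receptor gene *Trem2*, its adaptor *Tyrobp*, and *Apoe*, *Gpnmb*, *Spp1*, *Lpl*, *Fabp5*, *Cd9*, *Lgals3* and *Cd63*. They were taken as a list of gene symbols, by a rule that uses no measured value although earlier results of these data were known, and found among the 54309 identifiers of the expression table by their stable Ensembl identifiers. Of the 54309 identifiers, 13963 passed the minimum mean of 10 normalized counts, and all 10 members were among them. *Trem2* is also among the genes that the study itself reported for these tumors, so its direction here is not independent evidence.

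RNA was sequenced from whole MCA205 tumors, which grow from a transplantable mouse fibrosarcoma line induced by 3-methylcholanthrene. Female C57BL/6J mice aged 7 weeks received tumor cells under the skin of the right flank. From day 1, 3 control mice drank milliQ water and 3 treated mice drank water with FF-10101 at 0.1 mg/mL, an inhibitor of the receptor tyrosine kinases FLT3 and CSF1R, and each tumor was taken on day 8. The hosts were wild-type, the replicates were described as biological, and no tumor was pooled with another. Each value is therefore a sum over tumor cells, macrophages and all other cells of the tissue, and fewer cells of a type cannot be told apart from less RNA per cell.

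TREM2 is a surface receptor of macrophages, microglia and osteoclasts that binds lipids, lipoproteins and debris of dying cells and signals through the adaptor TYROBP, also called DAP12. In fat tissue, atherosclerotic plaques, injured brain and tumors, macrophages that take up lipid turn on a common group of genes for lipoproteins, lipid handling, lysosomes and adhesion, often called the lipid-associated macrophage program. Several of these genes are also used outside macrophages. *Spp1*, *Cd9*, *Cd63*, *Lgals3* and *Fabp5* are transcribed in many tumor, stromal or epithelial cells, *Lpl* in fat and muscle, and *Gpnmb* in pigment cells and osteoclasts.

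Total reads ranged from 9143806 to 13258258 per tumor, and reads were scaled by the size factor of each tumor to normalized counts. Over all genes, limma found 6 of 13963 past an adjusted p of 0.05, which is 0.0430%. Control tumor 1 stood apart from the other control tumors, and without it 3051 genes passed, so values without it are also given. Fibroblast and mesenchymal markers, 8 genes, summed to 65724–214294 normalized counts in control tumors and 164005–256086 in FF-10101–treated tumors. Whether their RNA came from the fibrosarcoma cells or from host fibroblasts cannot be told apart. The highest control sum was that of control tumor 1, the others being 89793 and 65724. Without that tumor 6 of the 8 markers were higher past a limma adjusted p of 0.05, where 12.0% of all genes were.

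Members lay on both sides of their control levels and none passed an adjusted p of 0.05 with all 6 tumors weighted equally. *Trem2* was lower, with a fitted ratio of treated to control of 0.499, *Gpnmb*, *Spp1* and *Fabp5* were higher, and *Apoe* and *Cd9* had fold changes near 0 on the log2 scale. By limma, 0 of 10 members passed the adjusted threshold, against 0.0430% of all genes, and limma-voom on the reads also gave 0 of 10. At an unadjusted p under 0.05, 1 member was lower, where 7.49% of all genes were, and 3 were higher, where 8.77% were. The control and treated tumors did not overlap for 1 member that was lower (background 9.37%) and for 2 that were higher (background 10.9%). The median log2 fold change of the members was 0.29, and that of all genes tested was 0.02.

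**Figure D1:**
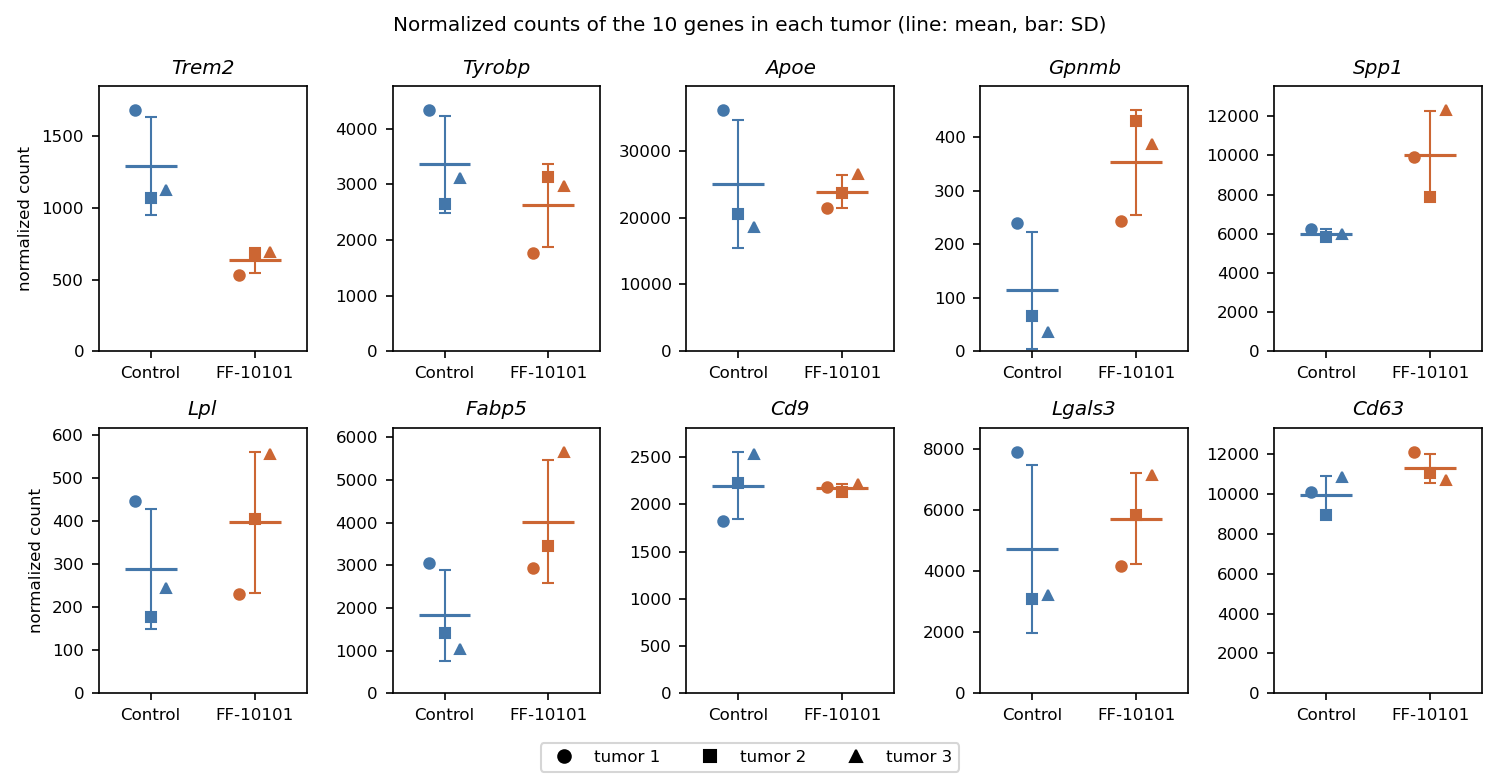
Normalized counts of each of the 10 members (vertical axes, linear and starting at 0) in 3 control and 3 FF-10101–treated tumors. Each point is 1 tumor, with the group mean and SD, and only *Trem2* (lower), *Gpnmb* and *Spp1* (higher) have groups that do not overlap.

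Only the promoter windows of *Trem2*, *Gpnmb* and *Spp1* are shown, as these are the members whose groups did not overlap. Each window runs from 250 bases before to 30 bases after an annotated start in RefSeq on GRCm38.p6, and 7 of the 10 members had such a window, 10 windows in all. Capitals mark letters found on either strand for AP-1 (TGANTCA), the core of the PU.1 site (GAGGAA) and the core of the RUNX site (ACCACA). The *Trem2* window lies on the plus strand of chr17:48346151-48346430, the *Gpnmb* window on the plus strand of chr6:49036268-49036547, and the first *Spp1* window on the plus strand of chr5:104434861-104435140.
Trem2: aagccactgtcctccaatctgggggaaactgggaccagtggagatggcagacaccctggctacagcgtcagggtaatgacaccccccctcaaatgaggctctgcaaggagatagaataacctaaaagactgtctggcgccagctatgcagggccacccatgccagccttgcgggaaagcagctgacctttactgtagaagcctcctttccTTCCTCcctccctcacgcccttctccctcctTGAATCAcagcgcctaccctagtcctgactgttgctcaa
Gpnmb: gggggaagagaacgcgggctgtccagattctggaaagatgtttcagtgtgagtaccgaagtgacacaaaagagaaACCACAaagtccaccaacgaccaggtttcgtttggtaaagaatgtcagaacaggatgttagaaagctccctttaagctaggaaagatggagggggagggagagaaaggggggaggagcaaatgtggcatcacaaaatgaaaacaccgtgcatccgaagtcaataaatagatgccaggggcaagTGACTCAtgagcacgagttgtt
Spp1: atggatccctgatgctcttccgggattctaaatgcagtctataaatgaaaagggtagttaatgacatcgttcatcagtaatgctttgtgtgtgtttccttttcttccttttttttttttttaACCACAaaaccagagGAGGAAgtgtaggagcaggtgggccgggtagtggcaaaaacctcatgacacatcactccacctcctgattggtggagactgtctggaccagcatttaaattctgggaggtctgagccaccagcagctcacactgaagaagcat

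In *Trem2*, the PU.1 letters began at base 211 of the window and the AP-1 letters at base 242. *Gpnmb* held the RUNX letters at base 76 and the AP-1 letters at base 259, and *Spp1* held the RUNX letters at base 123 and the PU.1 letters at base 138. No matches overlapped each other in these windows. AP-1 letters were in 7.46%, PU.1 letters in 26.0% and RUNX letters in 15.6% of 32851 RefSeq windows of the same length. The E-box CACGTG of the MITF and TFE factors, in 6.79% of all windows, was in none of the 10 windows of the members. *Trem2*, which was lower, and *Gpnmb*, which was higher, both held AP-1 letters. Among members whose groups overlapped, PU.1 letters were in *Apoe* windows 1 and 3 and in the *Cd63* window. *Spp1* window 2, *Apoe* window 2 and the windows of *Cd9* and *Lgals3* held no match.

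*Trem2* (ENSMUSG00000023992) encodes the receptor. It had 1683, 1071 and 1123 normalized counts in control tumors 1, 2 and 3, and 536, 679 and 690 in FF-10101–treated tumors 1, 2 and 3. Every treated tumor was below every control tumor, and control tumor 1 was the highest. The mean was 1292 ± 339 (SD, n = 3) in controls and 635 ± 85.6 with treatment. The log2 fold change was −1.003 with a standard error of 0.21, a 95% interval of −1.49 to −0.52 and a limma adjusted p of 0.229. Leaving out control tumor 1 gave −0.80 and an adjusted p of 0.0119, where 9.88% of all genes were lower past 0.05. The unadjusted limma p was 0.00149 with all tumors and 0.000888 without that tumor. Leaving out any other tumor gave a limma adjusted p of 0.251 to 0.648, and the direction held each time.

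*Tyrobp* (ENSMUSG00000030579) encodes the adaptor through which TREM2 and several other myeloid receptors signal. It had 4336, 2648 and 3117 normalized counts in the controls and 1772, 3130 and 2970 in the treated tumors. The groups overlapped, because treated tumors 2 and 3 lay among the control values and treated tumor 1 alone lay below them. The log2 fold change was −0.37, with a 95% interval of −0.998 to 0.25 and a limma adjusted p of 0.514, and −0.18 with an adjusted p of 0.632 without control tumor 1. It was −0.11 without treated tumor 1. The receptor lay below the control range in every treated tumor, and the adaptor in 1 of 3.

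*Gpnmb* (ENSMUSG00000029816), a transmembrane glycoprotein of lysosomes and the cell surface, had 239, 66.3 and 36.6 normalized counts in controls and 243, 429 and 386 after treatment. Every treated tumor was above every control, but treated tumor 1 exceeded control tumor 1 by only a few counts. These levels rest on 33–212 reads in control tumors and 318–434 reads in treated ones. The mean was 114 ± 109 in controls and 352 ± 97.3 after treatment (SD, n = 3), a log2 fold change of 2.02 ± 0.61 (SE) with a 95% interval of 0.61 to 3.44 and a limma adjusted p of 0.229. Without control tumor 1 it was 2.77 with an adjusted p of 0.0019, and without control tumor 3 it was 1.44 with an adjusted p of 0.61.

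*Spp1* (ENSMUSG00000029304) encodes osteopontin, a secreted ligand of integrins and CD44. It had 6242, 5819 and 5986 normalized counts in the controls and 9925, 7884 and 12313 in treated tumors. The controls were close together, with a coefficient of variation of 3.54%, and each treated tumor was above all of them. The log2 fold change was 0.72 ± 0.20 (SE), with a 95% interval of 0.27 to 1.17 and a limma adjusted p of 0.229. Unlike *Trem2* and *Gpnmb*, *Spp1* had about the same level in control tumor 1 as in the others, and leaving that tumor out gave 0.74 with an adjusted p of 0.03.

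The genes of lipid transport differed in their patterns. *Apoe* (ENSMUSG00000002985), the lipoprotein ligand that carries cholesterol out of macrophages, had 36044, 20503 and 18526 normalized counts in controls and 21497, 23634 and 26438 with treatment. Control tumor 1 was above every treated tumor and the other controls were below every treated tumor. The log2 fold change was −0.0092, with a 95% interval of −0.66 to 0.64 and a limma adjusted p of 0.991, and 0.29 with an adjusted p of 0.221 without control tumor 1. *Lpl* (ENSMUSG00000015568), lipoprotein lipase, which frees fatty acids from triglyceride-rich particles, had 446, 178 and 244 normalized counts in controls and 231, 404 and 557 in treated tumors. Its groups overlapped, with a log2 fold change of 0.47, a 95% interval of −0.47 to 1.41 and a limma adjusted p of 0.582. Leaving out control tumor 1 gave 0.84 with an adjusted p of 0.117, and leaving out each of the 6 tumors in turn gave 0.18 to 0.84.

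*Fabp5* (ENSMUSG00000027533), a carrier of fatty acids inside the cell, had 3043, 1409 and 1048 normalized counts in the controls and 2937, 3460 and 5651 in the treated tumors. Control tumor 1 lay above treated tumor 1, and the other controls lay below every treated tumor. The mean was 1833 ± 1063 in controls and 4016 ± 1440 after treatment (SD, n = 3), a log2 fold change of 1.22 ± 0.40 (SE) with a 95% interval of 0.29 to 2.16 and a limma adjusted p of 0.242. Without control tumor 1 it was 1.67 with an adjusted p of 0.00624.

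*Lgals3* (ENSMUSG00000050335), a galectin that binds galactosides and damaged lysosomes, had 7884, 3069 and 3209 normalized counts in controls and 4174, 5828 and 7136 after treatment. Control tumor 1 was the highest of all 6 tumors and the other controls were the lowest. Its log2 fold change was 0.39, with a 95% interval of −0.49 to 1.26 and a limma adjusted p of 0.63, and 0.83 with an adjusted p of 0.03 without control tumor 1. It was 0.15 without control tumor 2.

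The tetraspanins, membrane proteins that organize adhesion and vesicles, had log2 fold changes under 0.2 in size. *Cd9* (ENSMUSG00000030342) had 1829, 2226 and 2537 normalized counts in controls and 2186, 2132 and 2210 in treated tumors, where all treated values lay inside the control range. Its log2 fold change was −0.0014, with a 95% interval of −0.37 to 0.37 and a limma adjusted p of 0.997. *Cd63* (ENSMUSG00000025351), found on late endosomes and exosomes, had 10068, 8935 and 10828 in controls and 12084, 11040 and 10700 with treatment. Treated tumor 3 was just below control tumor 3, and the log2 fold change was 0.18, with a 95% interval of −0.20 to 0.56 and a limma adjusted p of 0.594.

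**Figure D2:**
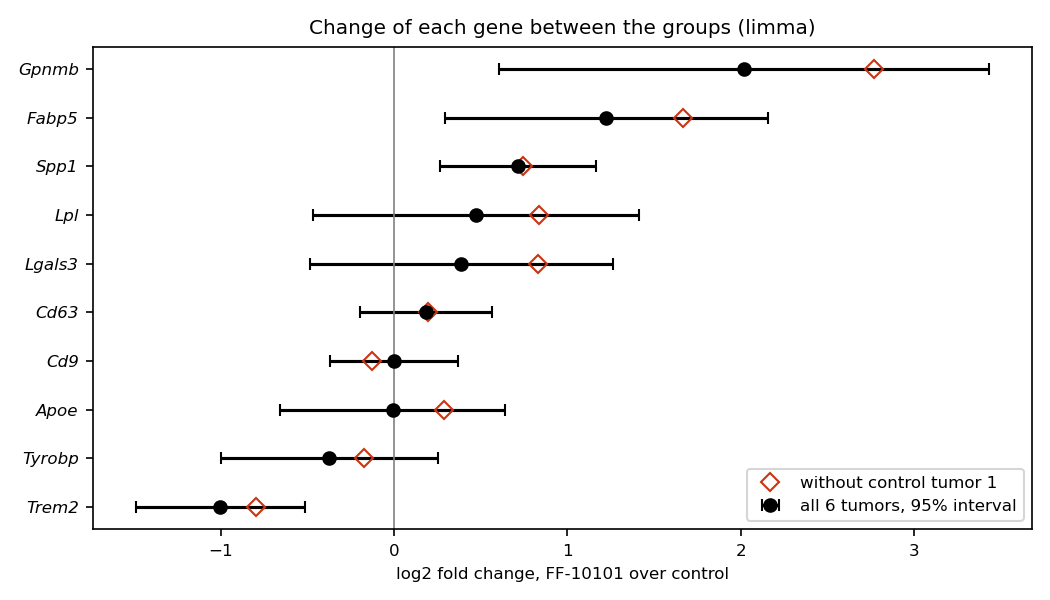
Log2 fold change of each member, FF-10101–treated over control, with its 95% interval, for all 6 tumors and without control tumor 1. Without that tumor, *Trem2* is at −0.80 and *Gpnmb* at 2.77, and the estimates of *Apoe*, *Lpl*, *Fabp5* and *Lgals3* are higher than with all tumors.

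An exact two-sided permutation test of 3 against 3 tumors cannot give a p below 0.1. *Trem2*, *Gpnmb* and *Spp1* each reached that smallest p. Exact permutation gave 0.2 for *Fabp5* and *Cd63*, 0.5 for *Tyrobp*, *Lpl* and *Lgals3*, and 1 for *Apoe* and *Cd9*.

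Much of the spread among controls came with control tumor 1. It held the highest control value of 8 of the 10 members, the exceptions being *Cd9* and *Cd63*. Its value over the mean of the other 2 controls was 4.64 for *Gpnmb*, 2.51 for *Lgals3*, 2.48 for *Fabp5*, 2.11 for *Lpl*, 1.85 for *Apoe*, 1.53 for *Trem2* and 1.504 for *Tyrobp*. For *Spp1* and *Cd63* that ratio was 1.06 and 1.02, and for *Cd9* it was 0.768. Treated tumor 1 likewise held the lowest treated value of 7 members. Without control tumor 1, 1 member was lower past a limma adjusted p of 0.05 (*Trem2*), where 9.88% of all genes were, and 4 were higher (*Gpnmb*, *Spp1*, *Fabp5* and *Lgals3*), where 12.0% were. The median of the members was then 0.51.

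Levels of different genes were compared per kilobase of the longest coding transcript. In control tumors *Apoe* was the highest, at 17773 ± 6814 normalized counts per kilobase (SD, n = 3), followed by *Cd63* at 8966, *Tyrobp* at 5640, *Spp1* at 3992, *Lgals3* at 3327, *Fabp5* at 1858, *Cd9* at 1789, *Trem2* at 1188, *Lpl* at 70.3 and *Gpnmb* at 30.8. Neighbors from *Spp1* down to *Trem2* overlapped in their tumor values, as did *Lpl* and *Gpnmb*. In treated tumors *Apoe* stayed first at 16943 ± 1760 and *Cd63* second at 10167, and *Spp1* at 6663 stood above *Tyrobp* at 4395. *Fabp5* at 4069 and *Lgals3* at 4026 came next, and the values from *Spp1* to *Lgals3* overlapped between neighbors. *Trem2*, at 583 ± 78.7 per kilobase, was apart from *Cd9* above it at 1772 and from *Lpl* below it at 96.5, while *Lpl* and *Gpnmb* at 95.2 overlapped.

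Some macrophage markers were also lower in treated tumors, so each member was compared with them within the tumor. The 10 pan-macrophage markers summed to 67840–106770 normalized counts in controls and 36464–57371 in treated tumors. Of the 10, 5 had an unadjusted limma p under 0.05, all lower, and none passed adjustment. These were *Lyz2* (log2 fold change −1.05), *Adgre1* (−0.95), *C1qc* (−0.84), *C1qa* (−0.70) and *C1qb* (−0.65). Without control tumor 1 their values were −1.01, −0.85, −0.55, −0.49 and −0.38, in the same order. The mean log2 level of the 10 markers was 12.34, 11.56 and 11.48 in controls and 10.97, 11.55 and 11.60 after treatment, an overlap, with a difference of −0.42 and an exact permutation p of 0.5. Without control tumor 1 the difference was −0.15.

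Relative to that mean, *Trem2* was at −1.62, −1.49 and −1.35 on the log2 scale in controls and −1.90, −2.15 and −2.16 in treated tumors. It was lower in all 3 treated tumors, by −0.58 on average, and by −0.65 without control tumor 1. It was the sole member that was lower with no overlap, and 0.444% of all genes were. Single markers such as *Lyz2* and *Adgre1* had log2 fold changes close to that of *Trem2* itself. *Tyrobp* differed from the markers by 0.047 and its groups overlapped, with an exact permutation p of 0.7.

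Another 6 members were higher relative to the markers in every treated tumor than in any control, namely *Gpnmb* by 2.44, *Fabp5* by 1.65, *Spp1* by 1.14, *Lpl* by 0.89, *Lgals3* by 0.81 and *Apoe* by 0.41. Of all genes, 31.8% were higher in this way. *Cd63* (0.60, or 0.34 without control tumor 1) and *Cd9* (0.42, or 0.020 without it) overlapped. Each of the 7 members without overlap had the smallest exact two-sided permutation p of 0.1, or 0.119 after Benjamini-Hochberg adjustment over the 19 comparisons with the markers or with *Trem2*.

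**Figure D3:**
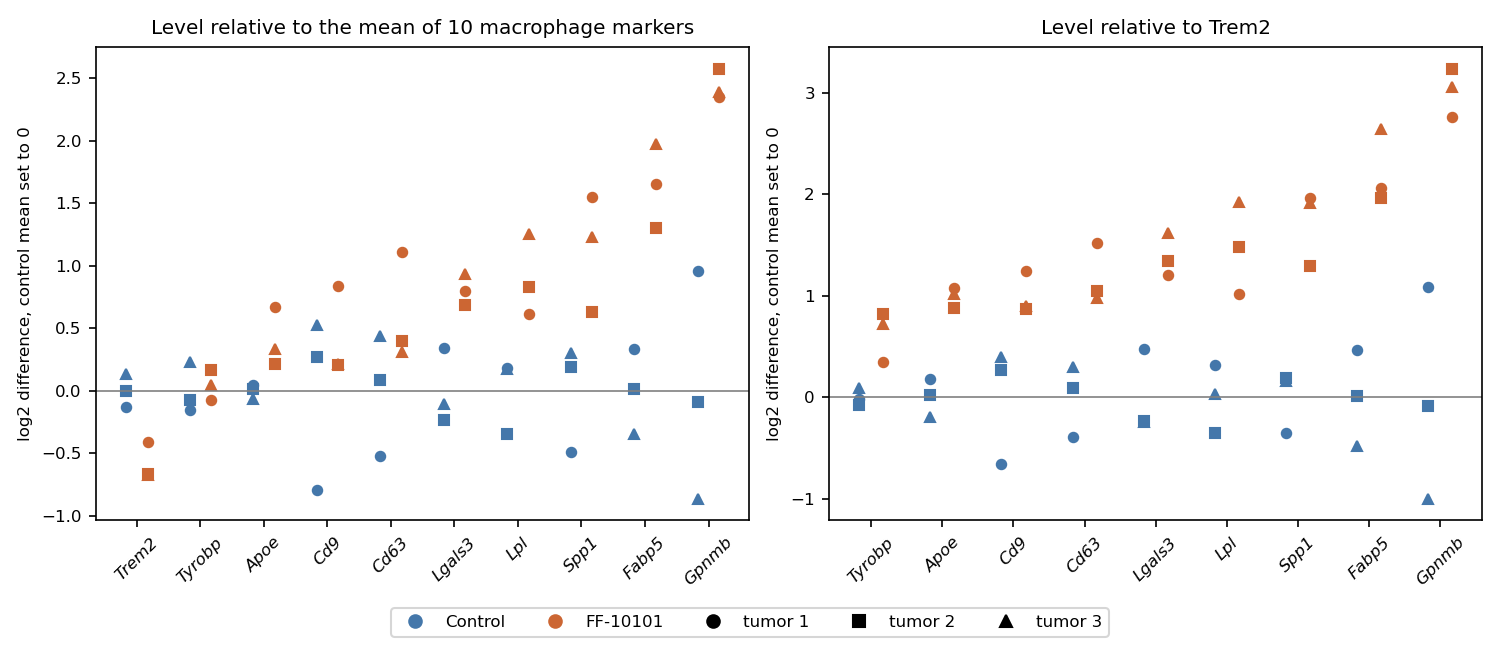
Left, log2 level of each member minus the mean log2 level of 10 pan-macrophage markers in the same tumor. Right, log2 level of each other member minus that of *Trem2* in the same tumor. There is 1 point per tumor, by group, drawn as the difference from the control mean of that gene. Against the markers, *Trem2* lies lower in all 3 treated tumors and *Tyrobp* overlaps. *Gpnmb*, *Fabp5*, *Spp1*, *Lpl*, *Lgals3* and *Apoe* lie higher against them in all 3.

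Set against *Trem2* in the same tumor, all 9 other members were higher in every treated tumor than in any control, and 74.7% of all genes were. These ratios share *Trem2* as the denominator and are not independent. The ratio of *Tyrobp* to *Trem2* normalized counts was 2.58, 2.47 and 2.78 in controls and 3.30, 4.61 and 4.31 after treatment. The ratio of *Apoe* to *Trem2* was 21.4, 19.1 and 16.5 against 40.1, 34.8 and 38.3. Neither ratio overlapped between the groups, although *Tyrobp* and *Apoe* themselves overlapped. For *Spp1* the ratio was 3.71, 5.43 and 5.33 against 18.5, 11.6 and 17.9, and for *Gpnmb* 0.142, 0.0619 and 0.0326 against 0.453, 0.632 and 0.559. The log2 difference from *Trem2* was largest for *Gpnmb* (3.02), then *Fabp5* (2.23), *Spp1* (1.72), *Lpl* (1.48), *Lgals3* (1.39), *Cd63* (1.19), *Cd9* (1.00), *Apoe* (0.99) and *Tyrobp* (0.63), each with the smallest exact permutation p of 0.1.

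The genes closest to *Trem2* over the 6 tumors were found by the root mean square distance of centered log2 levels. They were *Ppfia4* (0.074), *Rnaset2a* (0.122), *C1qc* (0.123), *Lmo2* (0.148) and *C1qa* (0.154). *C1qc* and *C1qa* encode chains of complement C1q, a product of tissue macrophages. *C1qc* had 12142, 6465 and 6729 normalized counts in controls and 3787, 5044 and 4827 after treatment, and *Lmo2*, a transcriptional cofactor of blood cells, had 622, 462 and 537 against 240, 345 and 284. In this ranking of 13956 genes, *Tyrobp* had rank 279 at a distance of 0.351 and *Apoe* rank 2533, while the other members lay further down, to *Gpnmb* at rank 13688. The likeness is a description of 6 tumors.

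Some lists share genes, such as *Cd68*, which is both a disease-associated gene and a macrophage marker. Genes around the receptor were read from a list of its signaling chain and neighbors, of which 18 were tested. None passed an adjusted p of 0.05, 2 were lower at an unadjusted p under 0.05, none was higher, and the median log2 fold change was −0.04. The median turned to 0.31 without control tumor 1. Past an adjusted p of 0.05, 0 genes were then lower and 4 higher, where 9.88% and 12.0% of all genes were. The lower genes were *Dok3*, an inhibitory adaptor, with 444, 239 and 377 normalized counts in controls and 202, 206 and 218 after treatment (log2 fold change −0.71), and *Card9*, an adaptor of fungal recognition receptors, with −0.69. Both had no overlap between groups.

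Of 33 other disease- and lipid-associated macrophage genes, all tested, 3 were lower and 6 higher at an unadjusted limma p under 0.05, none passed adjustment, and the median was 0.06, or 0.28 without control tumor 1. *Il1rn*, the interleukin-1 receptor antagonist, had 1090, 422 and 389 normalized counts in controls and 1618, 1958 and 2074 after treatment (log2 fold change 1.73). *Atp6v0d2*, a subunit of the lysosomal proton pump, had 58.5, 28.3 and 6.66 against 89.4, 159 and 272, with 2.73, or 3.40 without control tumor 1 and 1.92 without control tumor 3. *Ms4a7*, a macrophage membrane protein, went the other way, with 1417, 1464 and 1623 against 736, 1078 and 1011 and a log2 fold change of −0.69, as did *Syngr1* with −0.87. None of these groups overlapped. Without control tumor 1, 4 genes of the list were lower and 11 higher past an adjusted p of 0.05. Of all genes, 9.88% and 12.0% were.

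The list of lipid uptake, storage and efflux had 30 genes tested, with 1 lower and 3 higher at an unadjusted p under 0.05 and a median of 0.30, or 0.57 without control tumor 1. Its lowest gene was *Msr1*, the scavenger receptor SR-A, with 1523, 1517 and 1482 normalized counts in the controls and 563, 710 and 733 in treated tumors. *Msr1* had the lowest limma adjusted p of the named genes, 0.0813, with a log2 fold change of −1.18. It passed the threshold with no minimum count (limma adjusted p 0.0376), with array weights (6.01e-06) and without control tumor 1 (0.00322). Of all genes, 0.0374%, 27.9% and 9.88% were lower past it in those fits, in that order. With treated tumor 2 left out the adjusted p of *Msr1* reached 0.581. *Msr1* is also among the genes that the study itself reported as lower in these tumors, so its direction is not independent evidence. *Olr1*, another scavenger receptor for oxidized lipoprotein, was higher at low counts, with 19.1, 35.9 and 17.7 against 37.4, 74.9 and 58.7. The other genes higher at that threshold, *Angptl4* (2.26) and *Vldlr* (1.505), had overlapping groups and fall outside the rule for named genes. *Plin3*, a coat protein of lipid droplets, had a log2 fold change of −0.27. Without control tumor 1, 3 genes of this list were lower and 9 higher past an adjusted p of 0.05. Of all genes, 9.88% were lower and 12.0% higher in that fit.

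Among 16 regulators tested, *Maf* (−0.59) and *Srebf1* (−0.57), transcription factors of tissue macrophages and of lipid synthesis, were lower with no overlap, none was higher at an unadjusted p under 0.05, and *Ppara* had 0 reads in every tumor. Of 10 receptors for osteopontin or GPNMB, *Itgb1* was slightly higher in every treated tumor (0.18). Of 10 other tetraspanins, *Tspan3* was lower in every treated tumor (−0.25), and of 5 genes tested for galectins or a galectin-binding protein, *Lgals8* was higher (0.21). None of these 3 genes had an unadjusted p under 0.05. At that threshold 2 receptor genes, *Itgb3* (0.80) and *Itga8* (1.29), and the tetraspanin gene *Tspan7* (1.31) were higher with overlapping groups, named here after their values were seen. No gene of these 4 lists passed adjustment with all tumors weighted equally. With array weights, where 27.9% of all genes were lower and 32.0% higher past adjustment, *Maf*, *Srebf1*, *Tspan3* and *Lgals8* passed. *Itgb1* did not. When control tumor 1 was left out, the genes lower and higher past an adjusted p of 0.05 were 1 and 4 of the regulators, 1 and 2 of the receptors, 0 and 1 of the tetraspanins, and 1 and 2 of the galectin list. For all genes those shares were 9.88% and 12.0%.

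**Figure D4:**
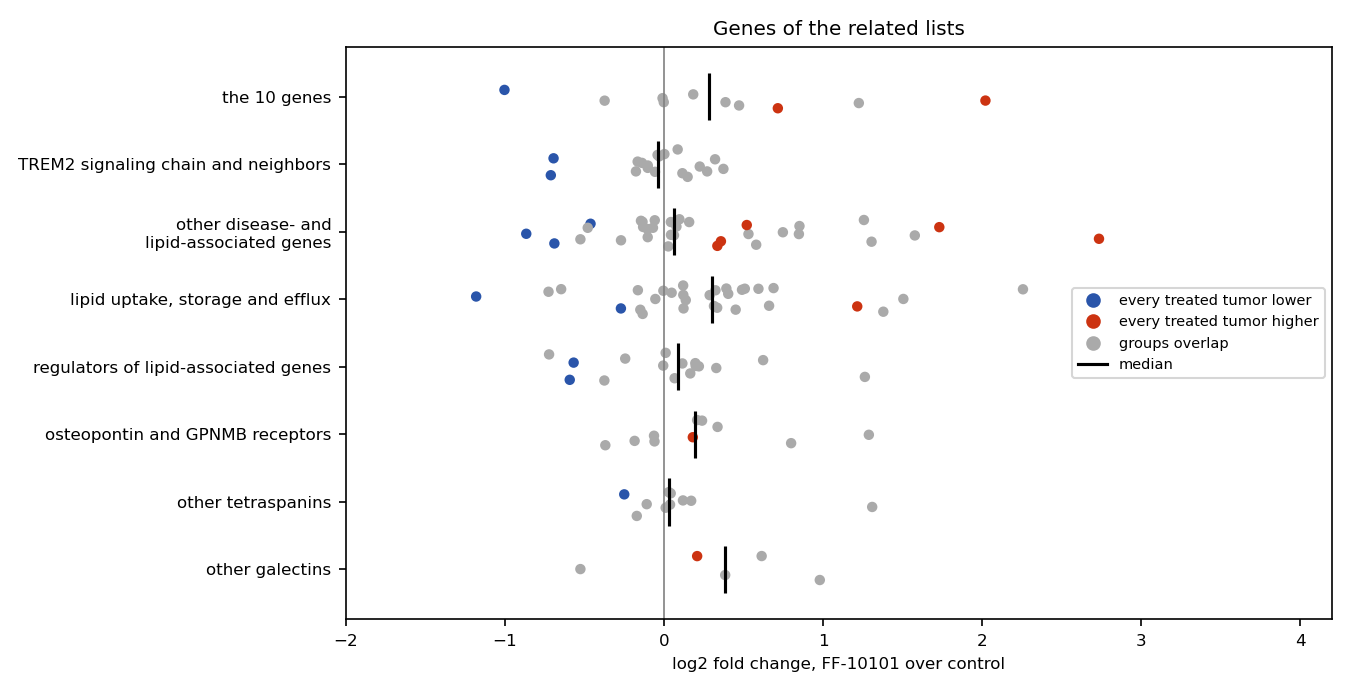
Log2 fold change, FF-10101–treated over control, of every gene tested in the member list and in 7 related lists, with the list medians. Each point is 1 gene, and the members run from −1.003 (*Trem2*) to 2.02 (*Gpnmb*).

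Markers of other cells that use these genes were read in the same tumors. The 6 osteoclast markers, which share *Acp5* with the disease-associated list, summed to 925–995 normalized counts in controls and 1259–1697 after treatment. *Calcr* was at 0 in every tumor. Of the 3 tested, *Ctsk* (0.58, no overlap) and *Acp5* (0.85, overlapping) were higher at an unadjusted limma p under 0.05, and none passed adjustment. The 6 melanocyte markers, of pigment cells that use *Gpnmb*, summed to 13.0–15.8 and 8.68–31.3, and none reached the minimum for testing. The 6 adipocyte markers, of cells that use *Lpl*, summed to 436, 354 and 721 in control tumors 1, 2 and 3 and to 122, 1086 and 1153 in treated tumors 1, 2 and 3. *Lpl* had the same order in the treated tumors but not in the controls, where it was highest in tumor 1. Keratinocyte markers summed to 56.5–214 in controls and 68.4–1144 after treatment, with the highest sum in treated tumor 1.

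Monocyte markers summed to 4580–10204 in controls and 7339–12673 in treated tumors, and neutrophil markers to 558–1229 and 1511–2255. Of the 6 monocyte markers 2, and of 6 neutrophil markers tested 4, were higher at an unadjusted p under 0.05. Of 6 mast cell markers, 5 were higher with no overlap, with sums of 272–484 and 629–1688. Endothelial markers, 5 of 6 higher at that threshold, summed to 1716–5088 and 5072–5675, and 4 of 8 fibroblast and mesenchymal markers were higher. Their part in the higher levels of *Gpnmb*, *Spp1* and *Fabp5* was not tested. With control tumor 1 left out, 4 monocyte, 5 neutrophil, 5 mast cell and 6 endothelial markers were higher past an adjusted p of 0.05. None of these lists had a lower gene past it, and of all genes 9.88% were lower and 12.0% higher. Of 6 proliferation genes, 3 were lower at an unadjusted p under 0.05, with sums of 5185–9206 and 4226–6507. Without control tumor 1, 4 of them were lower past an adjusted p of 0.05, and 2 dendritic cell markers were higher. Platelet markers summed to 962–1273 and 378–795, and among the 4 tested *Pf4* was lower (−1.26) and *Itga2b* higher (0.78) with no overlap. The groups of *Ppbp* (−0.29) and *Gp1bb* (−0.64) overlapped. Sums were 349–593 and 325–500 for dendritic cell markers, and 2593–5448 and 2467–8392 for skeletal muscle markers.

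Near-identical sequences could take reads from a few members. A *Cd63* pseudogene shares 98.0% over 858 bases and reached at most 2.17 normalized counts. A transcript opposite to *Cd9* and near copies of *Fabp5* had 0 reads, and 1 transcript overlapping *Spp1* averaged 1.62 normalized counts.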

How the data were processed

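RNA of 6 MCA205 tumors was sequenced from a library kit whose strandedness is not given in the sources used here, so reads of overlapping antisense genes cannot be told apart. The authors trimmed reads with fastp version 0.19.5, quantified them with Salmon version 1.5.1 on GENCODE vM27 (GRCm39) and used DESeq2 version 1.22.1, versions as in the submitters' processing notes. What the authors deposited are log2 values of each of 54309 identifiers in each tumor, by a transformation not given in the sources used here. Inverting them as variance-stabilized values left 100% of 325854 values at a whole read number within 1e-06 (largest gap 2.5e-09), with 1 size factor per tumor. Total reads were 9143806 to 13258258 per tumor, and a count of 0 allows up to 3 reads, or 2.29 to 3.38 normalized counts, for counting error only.

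The table had been planned for as normalized counts. These were recovered as reads over size factor, and log2(normalized count + 1) was tested with R version 4.3.3 and limma version 3.58.1 (lmFit, and eBayes with trend), group as the sole term, two-sided, over the 13963 genes whose mean reached 10 normalized counts. P values were adjusted by Benjamini-Hochberg over all of these genes. A fold change on this scale understates that of low genes. The steps were tested on simulated data. Levels relative to markers or to *Trem2* were compared by exact two-sided permutation of the tumors.

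Identifiers were named by their stable part from GENCODE vM21 (GRCm38), which named 51484, and lengths and sequence copies (BLAST version 2.17.0, at least 95% over 100 bases) came from its transcripts. Since the builds differ, no gene coordinates are given beyond the RefSeq promoter windows. *Trem5* of the signaling list was not matched.

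The named genes are the 10 members, of each related list the genes past an adjusted p of 0.05 and up to 2 with the lowest and 2 with the highest fold change among those without overlap between groups, and the 5 genes nearest *Trem2*. The members and lists were chosen with earlier results of these data known. Alternatives were pseudocounts of 0.5 and 10, no minimum or a mean of 50, no trend, quantile normalization or 75th percentile scaling, weights per tumor (array weights), the replicate block, each tumor left out, the deposited values used directly, limma-voom and, for markers, their median. The list counts without control tumor 1 were added after seeing the data.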

Additional observations from a re-analysis of the deposited data

How the results depend on the processing

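The number of genes past an adjusted p of 0.05, 6 with all tumors, was 17 with no minimum count, 3 with a minimum mean of 50, 8365 with array weights and 1 to 3051 with a tumor left out. The 3051 came without control tumor 1, and array weights gave that tumor the lowest weight, 0.139. Array weights gave 1 member lower and 6 higher past the adjusted threshold, where 27.9% and 32.0% of all genes were, and 6 higher at an unadjusted p under 0.05, where 34.3% were. Leaving out a tumor gave 0 to 1 lower and 0 to 4 higher past the adjusted threshold, where 0.00% to 9.88% and 0.00716% to 12.0% of all genes were, and 1 lower each time and 2 to 5 higher at the unadjusted one, where 3.43% to 17.2% and 4.13% to 19.8% of all genes were. Members without overlap were 1 to 2 lower and 2 to 5 higher with a tumor left out, where 11.1% to 25.7% and 12.7% to 28.4% of all genes were, and 4 were higher under quantile normalization, where 10.2% were. The median of the members ran from 0.129 to 0.515.

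*Tyrobp* turned to 0.163 with array weights, *Apoe* to 0.109 under quantile normalization and 0.207 with array weights, and *Cd9* to 0.00694 under quantile normalization. With a tumor left out, *Apoe* ran from −0.194 to 0.287, *Cd9* from −0.127 to 0.109, and *Tyrobp* relative to the macrophage markers from −0.028 to 0.161. The cause of these moves was not tested. The replicate numbers did not pair the tumors, since same-numbered tumors correlated at −0.288, −0.0397 and −0.277, and no tumor correlated best with its own number. With the replicate block, 1 gene passed. *Trem2*, *Gpnmb*, *Spp1* and *Fabp5* kept their direction under every alternative run.

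With 3 tumors per group, the intervals of *Lpl*, *Lgals3* and *Tyrobp* include differences in either direction. The levels of *Gpnmb* in control tumors 2 and 3 rest on 61 and 33 reads.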

Other observations

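*Angptl4*, *Clec7a*, *Vldlr* and *Capg* belong to the related lists but not to the named genes, and were picked out after their values were seen. *Angptl4*, a secreted inhibitor of lipoprotein lipase, had 1273, 172 and 175 normalized counts in control tumors 1, 2 and 3 and 945, 2131 and 2101 in FF-10101–treated tumors. Control tumor 1 lay above treated tumor 1, and the log2 fold change was 2.26 with a limma adjusted p of 0.243, or 3.21 and 0.00112 without control tumor 1. *Vldlr*, a lipoprotein receptor, had 257, 65.2 and 42.2 against 163, 245 and 414, and *Clec7a*, the beta-glucan receptor Dectin-1, had 3039, 1867 and 1156 against 2632, 6040 and 5639. In all 3 genes the controls were lowest in tumors 2 and 3, as for *Fabp5* and *Gpnmb*. *Capg*, an actin-capping protein, was lower in every treated tumor, with 3950, 4133 and 4421 against 2969, 3026 and 3075, a log2 fold change of −0.46 and a limma adjusted p of 0.229, or 0.0236 without control tumor 1.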
